A study of Mus musculus with 2 samples.

Results

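S100a8, S100a9, S100a4, S100a6, S100a10, S100a11 and Retnlg were followed through 2 deposited tables of cluster markers from mouse liver cells. These 7 genes were chosen by name with earlier results of these data known, so counts of them per cluster are descriptive. All of their rows were taken. They were 14 rows among the 1755 genes of the table of all cells, and 1 row among the 1609 genes of the table of hepatocytes. All 7 were listed in the table of all cells. In the table of hepatocytes S100a10 was listed, and the other 6 (S100a8, S100a9, S100a4, S100a6, S100a11 and Retnlg) were not. The cells were isolated from fasted male wild type BALB/c mice, aged 8 to 10 weeks per the methods. The mice received PBS or 0.5 µg rIL-33 intraperitoneally each day for 5 days. The name rIL-33 stands for recombinant interleukin-33, a cytokine that activates group 2 innate lymphoid cells. The livers were perfused with a digesting enzyme, and cells were loaded into droplets without sorting, so that blood and immune cells came with the hepatocytes. Each condition gave 1 library of 10× Genomics 3ʹ single-cell RNA sequencing, and how many mice each library held is not given in the sources used here. Both libraries are pooled in the tables, so no value for PBS or rIL-33 apart, no replicate spread and no test could be given, and the depth per cell and per library is unknown.

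S100 proteins are small cytosolic proteins with a pair of EF-hands, the loops through which most of them bind calcium, and they act mostly by binding other proteins. S100a8 and S100a9 encode the subunits of calprotectin, which fills the cytosol of neutrophils, sequesters zinc and manganese from microbes and, once released, acts as an alarm signal on Toll-like receptor 4. Retnlg encodes resistin-like molecule gamma, a secreted protein of the neutrophil lineage in mice. S100a4, S100a6, S100a10 and S100a11 are found in many motile and immune cells; S100a10 is unusual in that it no longer binds calcium and pairs with annexin A2, and S100a11 pairs with annexin A1. Hepatocytes are not known as a main source of S100a8 or S100a9 in healthy liver, although inflammation can change the genes they express.

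On GRCm38, the assembly that is called mm10 in the labels, the 6 S100 genes lie on chromosome 3 and Retnlg on chromosome 16. S100a4 (90603771 to 90606045), S100a6 (90612882 to 90624181) and S100a8 (90668978 to 90670035) lie in this order on the plus strand, and S100a9 (90692632 to 90695721) follows on the minus strand, 22596 bases after S100a8. S100a11 (93520488 to 93526287) and S100a10 (93555080 to 93564643) lie 28792 bases apart, on the plus strand, 2824766 bases beyond S100a9. Retnlg spans 48872621 to 48874496 on the plus strand. In the GENCODE M21 basic annotation the longest transcript has 3 exons for each of the 6 S100 genes and 4 for Retnlg, with lengths from 486 nucleotides for S100a8 to 731 for S100a6.

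The promoters of S100a8, S100a9 and Retnlg are shown because these 3 genes were listed for neutrophils and for no other cluster. Each is the RefSeq window on GRCm38.p6 from 250 bases before to 50 bases after the start annotated in RefSeq. The letters are read 5′ to 3′ on the gene's own strand. For S100a8 and Retnlg this start differs from the GENCODE start given above, and positions below count from the RefSeq start. Capitals mark matches, on either strand, to TTGCNNAA (the letters bound by C/EBP factors, which act in granulocyte development), GAGGAA (part of the site of PU.1, a myeloid factor), TTCNNNGAA (the site of STAT factors) and TATAAA (the TATA box). The windows are chr3:90668821-90669120 on the plus strand for S100a8, chr3:90695672-90695971 on the minus strand for S100a9 and chr16:48872358-48872657 on the plus strand for Retnlg.
S100a8: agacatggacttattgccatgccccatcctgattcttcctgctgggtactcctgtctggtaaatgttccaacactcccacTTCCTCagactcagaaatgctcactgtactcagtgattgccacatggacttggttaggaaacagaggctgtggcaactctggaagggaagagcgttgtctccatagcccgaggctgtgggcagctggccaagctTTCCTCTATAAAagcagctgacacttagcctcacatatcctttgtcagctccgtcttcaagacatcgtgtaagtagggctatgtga
S100a9: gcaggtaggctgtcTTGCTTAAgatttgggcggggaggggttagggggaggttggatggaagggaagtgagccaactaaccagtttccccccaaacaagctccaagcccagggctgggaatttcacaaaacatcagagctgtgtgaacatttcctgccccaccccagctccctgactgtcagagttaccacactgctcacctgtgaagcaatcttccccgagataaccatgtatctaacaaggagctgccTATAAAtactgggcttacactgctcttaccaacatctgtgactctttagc
Retnlg: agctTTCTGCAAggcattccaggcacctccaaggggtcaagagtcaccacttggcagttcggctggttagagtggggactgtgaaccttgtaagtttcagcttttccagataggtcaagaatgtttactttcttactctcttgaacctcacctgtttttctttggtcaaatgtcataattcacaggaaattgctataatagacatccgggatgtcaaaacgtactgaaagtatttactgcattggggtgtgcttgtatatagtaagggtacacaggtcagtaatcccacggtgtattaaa

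The S100a8 window held 2 matches to GAGGAA (both read as TTCCTC on its strand) and TATAAA beginning at position -30. The S100a9 window held TTGCTTAA at -236 and TATAAA beginning at 1, the annotated start itself. The Retnlg window held 1 match to TTGCNNAA, read as TTCTGCAA, at -246, and no TATAAA. None of these 3 windows held TTCNNNGAA. Over all 32851 RefSeq windows of this length, GAGGAA was found in 28.3%, TATAAA in 13.6%, TTGCNNAA in 10.8% and TTCNNNGAA in 8.30%. Among the other 20 genes that were listed for neutrophils alone, 10 had GAGGAA, 6 TATAAA, 4 TTCNNNGAA and 3 TTGCNNAA in at least 1 window. These counts are per gene and the percentages are per window, so they cannot be compared directly. These matches describe the letters of the windows, and factor binding was not measured.

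A row of the tables belongs to a gene that the authors' marker search gave for a cluster, and gives the share, which is the percentage of cells whose value exceeded 0, once for the cluster and once for all cells outside it. The cluster names are the authors'. Of the 8 neutrophil markers other than S100a8, S100a9 and Retnlg that were checked, 5 were listed for the cluster named neutrophil (12.9% of all genes). They were Mmp8, Cxcr2, Hdc, Csf3r and Il1r2, while Ly6g, Mmp9 and Clec4d were listed for none. All 8 T cell markers checked were listed for T cells (34.1% of all genes), and 6 of 7 B cell markers for B cells (29.1%). Of the T cell markers, Cd3d was also listed for neutrophils, at 43.0% in the cluster against 13.1% outside. Of 7 endothelial markers, 2 were listed for the cluster named endothelial (5.58% of all genes) and 5 for that named for HSC and fibroblasts (30.5%). Clec4g was listed for both, and Lyve1 for no cluster. Of 7 HSC and fibroblast markers, 6 were listed for the HSC and fibroblast cluster. Dcn, among them, was also listed for the endothelial cluster (48.1% against 12.3%). The names of both clusters thus do not cover all of their markers.

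Of the 7 genes, 5 were listed for neutrophils, against 12.9% of all genes of the table. For T cells the count was 4 of 7 (34.1% of all genes) and for B cells 4 of 7 (29.1%). For Hepatocyte3, a cluster with 8.99% of all cells, it was 1 of 7 (2.11% of all genes), as it was over the 5 hepatocyte clusters together (32.7%). The remaining 8 of the 12 clusters listed 0 of the 7. They were Kupffer cells (28.4% of all genes listed), endothelial cells (5.58%), a cluster named for HSC (hepatic stellate cells) and fibroblasts (30.5%), red blood cells (18.2%), Hepatocyte1 (1.77%), Hepatocyte2 (0.57%), Hepatocyte4 (25.2%) and Hepatocyte5 (24.7%). S100a8, S100a9 and Retnlg were the 3 listed for 1 cluster alone (36.5% of all genes), and that cluster was neutrophils (1.31%). S100a4 was listed for exactly T cells and B cells (2.85%), S100a6 and S100a11 for these and neutrophils (1.08%), and S100a10 for T cells, B cells and Hepatocyte3 (0.228%). Absence from a list sets no level, since every row has a share of at least 25% inside or outside its cluster and rarer genes do not appear. The share in the cluster was at least 25 percentage points above that outside it for 5 genes in neutrophils (6.27% of all genes), for 4 in T cells (17.8%), for 2 in B cells (12.8%) and for 0 in Hepatocyte3 (0% of all genes). The median difference over the listed genes was 69.0 points in neutrophils, against 24.1 points over all 226 genes listed there, 45.1 points in T cells against 26.2, and 20.5 points in B cells against 22.3.

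**Figure D1:**
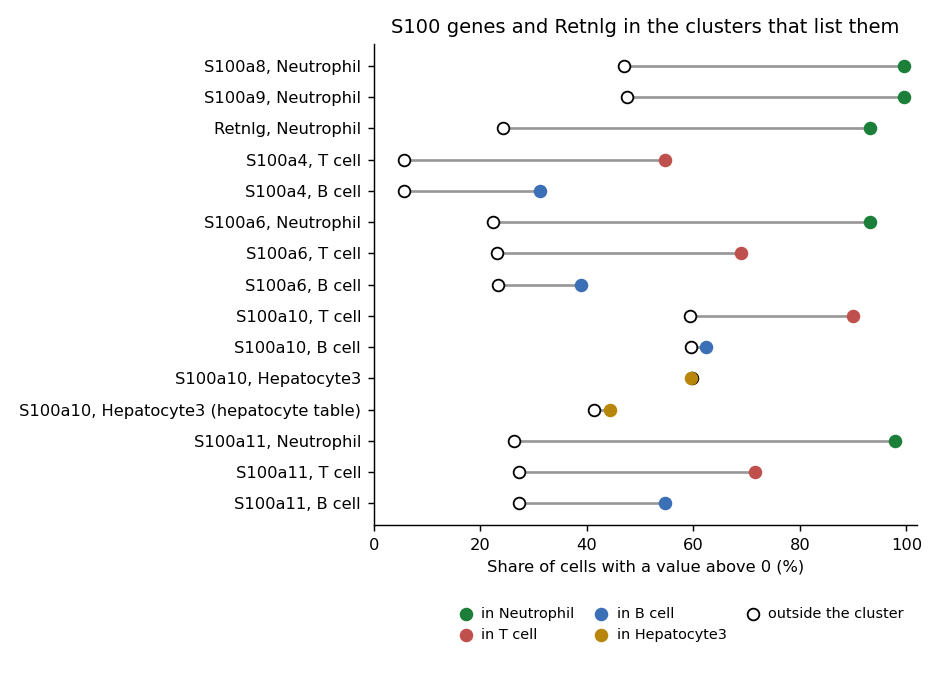
Percentage of cells whose value exceeded 0 (%, x axis) for every row of the 7 genes; the filled point is the share in the cluster, coloured by cluster, the open point the share outside it, and the line joins both. In neutrophils the filled points sit between 93.2 and 99.6%, and for S100a10 in B cells and Hepatocyte3 both points nearly coincide.

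S100a8 and S100a9, the subunits of calprotectin, had nearly the same shares. S100a8 had a value above 0 in 99.6% of the neutrophils and in 46.9% of all other cells. S100a9 had one in 99.6% of the neutrophils and in 47.5% of the others. No gene listed for neutrophils had a higher share in that cluster than these 2, and their shares outside it were high as well, ranking 15 of 226 for S100a8 and 13 of 226 for S100a9, where the median over the 226 genes was 22.0%. The differences of 52.7 and 52.1 points between neutrophils and other cells ranked 32 and 34 of 226.

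Retnlg had a value above 0 in 93.2% of the neutrophils and in 24.2% of the other cells. Its difference of 69.0 points ranked 9 of 226. S100a6, known as calcyclin, had the same neutrophil share, 93.2%, against 22.3% outside, a difference of 70.9 points that ranked 8. S100a11 was at 97.9% against 26.3%, and its 71.6 points ranked 7 of 226. Retnlg, S100a6 and S100a11 therefore lay close together on both shares, whereas S100a8 and S100a9 stood higher outside the neutrophils. By ratio of shares the order within the 5 differed: S100a6 was at 4.18, Retnlg at 3.85, S100a11 at 3.72, S100a8 at 2.12 and S100a9 at 2.10 times the share outside.

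**Figure D2:**
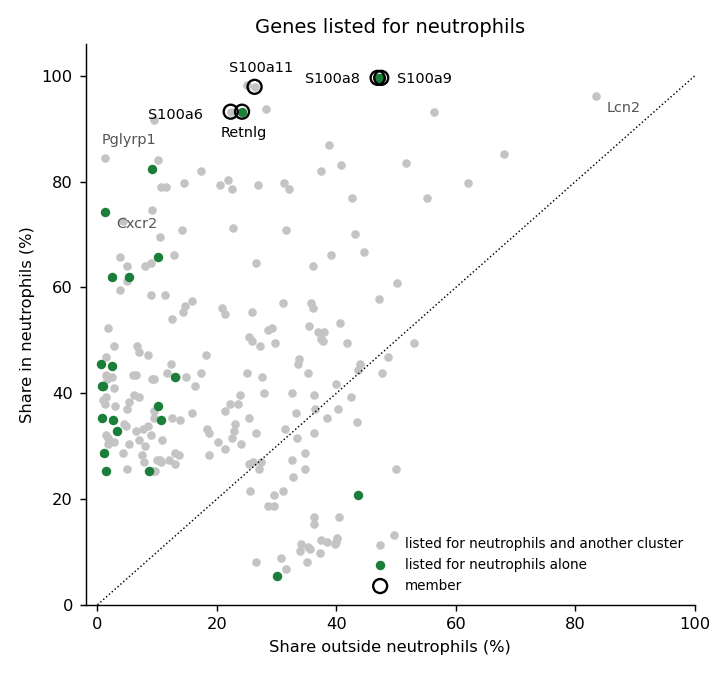
Percentage of cells whose value exceeded 0 outside neutrophils (%, x axis) and in neutrophils (%, y axis) for the 226 genes listed for that cluster; green points are genes listed for neutrophils alone, circles mark the 5 S100 and Retnlg genes and the dotted line marks equal shares. S100a8 and S100a9 sit at 99.6% on the y axis and at 46.9 and 47.5% on the x axis, between Cxcr2 and Pglyrp1, both at 1.3% outside, and Lcn2 at 83.4%.

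Neutrophils were few among these cells. Balancing both shares over the clusters gave neutrophils 2.10% of all cells and the 5 hepatocyte clusters together 90.0%. Over all cells S100a8 then had a value above 0 in 48.0%, S100a9 in 48.6% and Retnlg in 25.6%. Neutrophils made up 4.35% of the cells with a value above 0 for S100a8, 4.30% for S100a9, 7.62% for Retnlg, 8.21% for S100a6 and 7.38% for S100a11. For Cxcr2, the chemokine receptor of neutrophils, they made up 55.0%, and for Mmp8, a neutrophil collagenase, 16.2%. Over the other 20 genes listed for neutrophils alone this part ranged from 0.391 to 61.9% with a median of 21.3%. Over all 226 genes listed for neutrophils the median part was 4.81%, and S100a8 and S100a9 ranked 121 and 122 of 226, near the middle.

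The share in hepatocytes was not listed for S100a8, S100a9 or Retnlg, but the balance bounds it. If every cell of the clusters that are neither neutrophils nor hepatocytes had a value above 0, S100a8 would still have one in 42.1% of the hepatocytes, and if none had, in 51.1%. The corresponding range was 42.8 to 51.8% for S100a9 and 17.4 to 26.4% for Retnlg. For S100a6 it was 17.3 to 22.3%, for S100a11 21.2 to 26.3%, for S100a10 56.2 to 63.6% and for S100a4 from 0 to 5.4%. The ranges of S100a8 and S100a9 overlapped each other and none of the other 5 genes, and those of Retnlg, S100a6 and S100a11 overlapped among themselves. The 12 neutrophil granule and marker genes listed for neutrophils lay on both sides. Lcn2 had a range of 81.9 to 90.9%, above all 7 genes. Lyz2, the lysozyme of myeloid cells, at 17.8 to 21.3%, overlapped with Retnlg and S100a6 and narrowly with S100a11. Mxd1, at 10.3 to 18.4%, overlapped with Retnlg and S100a6. The other 9 had ranges that ended at or below the 17.0% of Slpi, among them Csf3r, the receptor of granulocyte colony-stimulating factor, from 2.06 to 11%, Mmp8 from 0.966 to 9.91%, Cxcr2 from 0 to 1.42% and Pglyrp1, an antibacterial granule protein, from 0 to 0.804%.

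**Figure D3:**
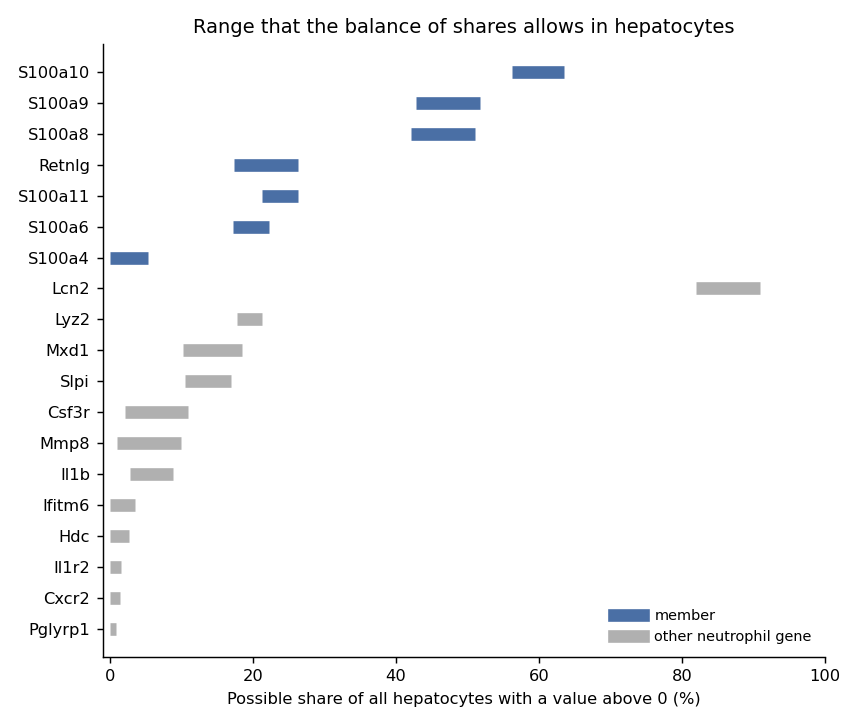
Lowest to highest share of hepatocytes with a value above 0 (%, x axis) that the balance of shares in the table of all cells allows, for the 7 genes (blue) and the 12 neutrophil granule and marker genes listed for neutrophils (grey). S100a8 and S100a9 span about the same range, 42.1 to 51.1% and 42.8 to 51.8%, Lcn2 lies above both at 81.9 to 90.9%, and Cxcr2 and Pglyrp1 stay at or below 1.42%.

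By themselves, these shares outside neutrophils do not show expression of the genes by hepatocytes, which was not tested. The values of the table of all cells differed from those of the hepatocyte table for the same cells. The relative sizes of the 5 hepatocyte clusters from both tables lay within 0.0791 points of each other, yet of 825 pairs of the same gene and cluster listed in both, 704 had a higher share in the table of all cells, 17 a lower one and 104 an equal one within 0.05 points. The median of the difference was 10.5 points and the highest 51.7. Most pairs came from Hepatocyte4 (385 pairs, median 13.9 points) and Hepatocyte5 (409 pairs, median 5.3 points). Hepatocyte1, with 49.9% of all cells, gave 10 pairs with a median of 14.55 points. Hepatocyte3 gave 14 pairs with a median of 11.9 points, and Hepatocyte2 gave 7 with 0.5. The table of all cells may hold batch-integrated values, in which a value above 0 need not be a counted transcript. How much of the 46.9% for S100a8 was counted transcripts was not tested, since S100a8, S100a9 and Retnlg have no row in the hepatocyte table.

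S100a10, which encodes the partner of annexin A2, was the one of the 7 with a row in both tables. In Hepatocyte3 it had a value above 0 in 59.5% of the cells in the table of all cells and in 44.3% in the hepatocyte table, 15.2 points apart. Of the 14 genes listed for Hepatocyte3 in both tables, all had the higher share in the table of all cells, and S100a10 ranked 3 by the size of the difference. Against the cells outside Hepatocyte3 its share hardly differed: 59.5% against 59.7% in the table of all cells, and 44.3% against 41.3% in the hepatocyte table. Of all genes of the hepatocyte table, the share listed for Hepatocyte3 was 7.64%, and the median difference over these 123 genes was 1.0 points, against 3.0 for S100a10; none of them was 25 points higher (0%). The other clusters of that table, which listed 0 of the 7 genes, were Hepatocyte1 (10.6% of all genes listed), Hepatocyte2 (3.48%), Hepatocyte4 (54.7%) and Hepatocyte5 (54.3%), and 69.7% of all genes, S100a10 among them, were listed for 1 cluster alone. Over all hepatocytes S100a10 had a value above 0 in 41.6% in the hepatocyte table, below the 56.2% that the table of all cells gives as its lowest possible share.

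**Figure D4:**
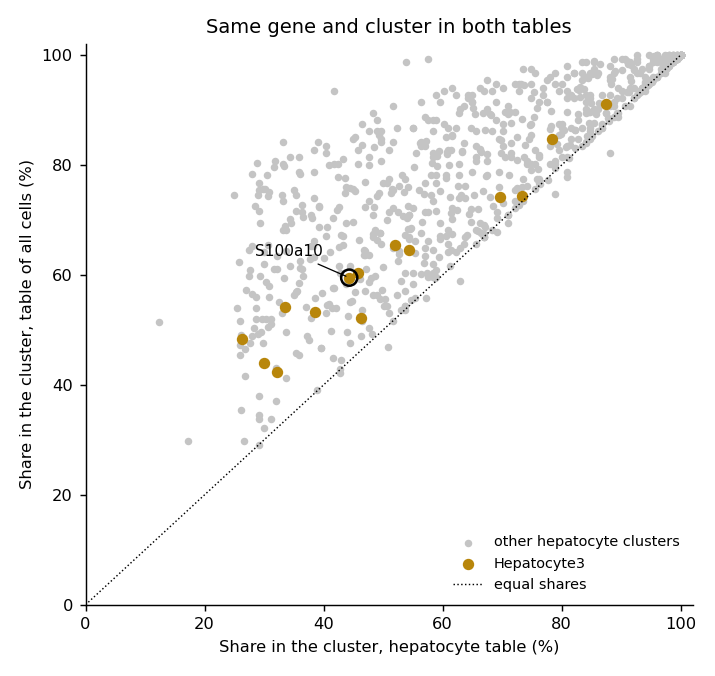
Percentage of cells whose value exceeded 0 in the hepatocyte table (%, x axis) and in the table of all cells (%, y axis) for the 825 pairs of gene and cluster listed in both; Hepatocyte3 pairs are gold, S100a10 is circled and the dotted line marks equal shares. Most points lie above the line, and S100a10 lies 15.2 points above it.

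S100a4, S100a6, S100a10 and S100a11 were listed for both T cells and B cells. S100a4, also called metastasin, was listed for these 2 clusters alone, with a value above 0 in 54.7% of the T cells and in 31.2% of the B cells. Outside these clusters it was the rarest of the 7, at 5.03% over the other 10 clusters pooled. S100a6 was at 68.9% in T cells and 38.9% in B cells, and S100a11 at 71.6% and 54.7%. S100a10 was at 89.9% in T cells against 59.3% outside them, and at 62.3% in B cells against 59.6% outside. In each of the 4, the T cell share was the higher one, by 30.0 points for S100a6, 27.6 for S100a10, 23.5 for S100a4 and 16.9 for S100a11. Of all 311 genes listed for both clusters, 54.3% had the higher share in T cells, with a median difference of 2.1 points. By this difference S100a6 ranked 11 of 311, S100a10 17, S100a4 27 and S100a11 53. The transcripts counted per cell are unknown for both clusters, and their part in these differences was not tested.

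**Figure D5:**
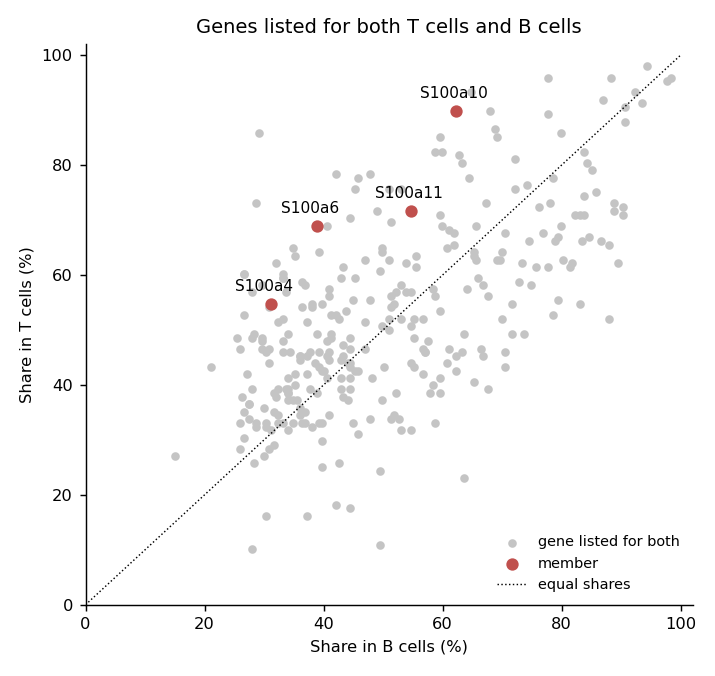
Percentage of cells whose value exceeded 0 in B cells (%, x axis) and in T cells (%, y axis) for the 311 genes listed for both clusters; the 4 S100 genes are red and the dotted line marks equal shares. All 4 lie above the line, between 16.9 points for S100a11 and 30.0 points for S100a6.

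Of the 7, S100a6 and S100a11 were the genes listed for neutrophils, T cells and B cells alike. Both followed one order, with the highest share in neutrophils, then T cells, then B cells. S100a6 was at 93.2%, 68.9% and 38.9% in this order, and S100a11 at 97.9%, 71.6% and 54.7%. Of the 131 genes listed for neutrophils and T cells, 27.5% had the higher share in neutrophils, with a median of -12.1 points for neutrophils minus T cells. S100a11 (26.3 points) ranked 6 and S100a6 (24.3 points) 7 of these 131. Of the 124 genes listed for neutrophils and B cells, 44.4% had the higher share in neutrophils, with a median of -1.55 points; S100a6 (54.3 points) ranked 4 and S100a11 (43.2 points) 7. In the pooled clusters that listed neither, S100a6 had a value above 0 in 21.3% of the cells and S100a11 in 25%.

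Each gene was also set beside the genes listed for exactly the same clusters, by the mean absolute difference of both shares. S100a8 and S100a9 were nearest to each other among 22 other genes listed for neutrophils alone, 0.3 points apart in 1 cluster. The next gene was Retnlg, 14.6 points from S100a8 and 14.9 from S100a9, and the third Mmp8, 27.6 and 27.9 points away. Retnlg itself was nearest to Mmp8, at 13 points. S100a6 and S100a11 were nearest to each other among 18 other genes, 5.83 points apart over 3 clusters. For S100a6, Klf2, a transcription factor of quiescent lymphocytes, followed at 12.4 points and Selplg, the ligand of P-selectin, at 12.9. For S100a11, Srgn, the proteoglycan of secretory granules, followed at 9.82 points and Sh3bgrl3 at 13.1. S100a4 was nearest to Sp100, a nuclear body protein, at 1.32 points over 2 clusters and among 49 other genes, then to Inpp4b at 3.17 and to Cd2, an adhesion receptor of lymphocytes, at 4.5. S100a10 shared its clusters with 3 genes, and the nearest, Nme1, was 19.8 points away. With at most 3 clusters behind each value, these distances describe the tables and do not test likeness.

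Partners of the S100 proteins were tallied from a list of 12, of which 5 were listed in the table of all cells. Neutrophils listed 3 of 12 (Anxa1, Anxa2 and Myh9), against 12.9% of all genes. T cells listed 4 of 12 (these and Ahnak), near the 34.1% of all genes, and B cells and the cluster of HSC and fibroblasts 3 of 12 each (Anxa2, Myh9 and Ahnak), no more than the 29.1 and 30.5% of all genes. Anxa1, the partner of S100a11, had a value above 0 in 78.9% of the neutrophils against 11.5% outside, and in 37.2% of the T cells against 12.6%. Anxa2, the partner of S100a10, was at 66.2% against 12.8% in neutrophils, for which S100a10 itself was not listed. In T cells Anxa2 was at 46.6% against 13.5%, and in B cells at 30.8% against 13.5%. In the cluster of HSC and fibroblasts Anxa2 was at 89.5%; this cluster, the smallest with 0.171% of all cells, listed none of the 7 genes, and its shares rest on few cells. Myh9, the non-muscle myosin that S100a4 binds, was at 61.5% in T cells against 27.3% outside, at 43.3% in B cells against 27.4%, at 43.0% in neutrophils against 27.5%, at 42.1% in Kupffer cells against 27.4% and at 94.7% in the HSC and fibroblast cluster against 27.7%. Ahnak, a large scaffold that binds S100a10 with annexin A2, was at 68.9% in T cells against 29.9%, at 40.5% in B cells against 30.2% and at 89.5% in the HSC and fibroblast cluster against 30.3%. Plg, the plasminogen that S100a10 can hold at the cell surface, is made by hepatocytes. In the hepatocyte table it was at 89.3% in Hepatocyte4 against 35.8% and at 100% in Hepatocyte5 against 44.7%, and in the table of all cells at 92.2% against 53.9% and at 100% against 59.6%. Capzb, an actin capping subunit, was listed for Hepatocyte4 in the hepatocyte table, at 29.4% against 7.3%. In that table Hepatocyte4 listed 2 of the 12 partners, below the 54.7% of all genes, and Hepatocyte5 1 of 12, below the 54.3%. In the table of all cells Hepatocyte4 (25.2% of all genes), Hepatocyte5 (24.7%) and Kupffer cells (28.4%) listed 1 of 12 each.

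Of 13 receptors and signalling genes for S100a8 and S100a9, 3 were listed in the table of all cells and 0 in the hepatocyte table. Neutrophils listed 2 of 13, near the 12.9% of all genes. T cells (34.1% of all genes), B cells (29.1%), Kupffer cells (28.4%), red blood cells (18.2%) and the cluster named endothelial (5.58%) listed 1 of 13 each. Cd33, a sialic acid receptor that binds S100a9, was listed for neutrophils alone, at 62.0% against 5.2%. Nfkb1 was listed for 4 clusters. Its share was lower inside the cluster for neutrophils, 8.0% against 26.5%. It was higher inside for T cells (52.0% against 25.8%), Kupffer cells (38.1% against 25.8%) and B cells (33.2% against 26.0%). Cd36, a scavenger receptor, was at 50% against 25% in red blood cells and at 38.0% against 25.1% in the cluster named endothelial. The receptors Tlr4 and Ager were listed for no cluster, which leaves their levels unknown.

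Of 29 neutrophil granule and marker genes other than the 7, 12 were listed for neutrophils (12.9% of all genes). Of these, 10 were at least 25 points higher there (6.27% of all genes). The 4 with the largest differences were Pglyrp1 (84.4% against 1.3%), Mmp8 (82.3% against 9.1%), Cxcr2 (74.3% against 1.3%) and Mxd1 (81.9% against 17.3%). Pglyrp1 was also listed for T cells (39.9% against 2.5%) and Mxd1 for red blood cells (47.5% against 18.4%). Others of the 12, among them Lyz2, Slpi and Lcn2, were also listed for other clusters. Elane, Mpo, Camp and Ltf, which encode granule proteins, were listed for no cluster, whereas Mmp8, Pglyrp1 and Lcn2, which do so too, were listed for neutrophils. Lcn2, which neutrophils and inflamed hepatocytes both make, was at 96.2% in neutrophils and at 83.4% outside them, the highest share outside among the 226 genes.

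Among 10 further genes of the S100 family, 0 were listed in the table of all cells and 2, S100a1 and S100a13, in the hepatocyte table. S100a1 was listed for Hepatocyte1, the largest cluster, with a value above 0 in 20.8% of its cells against 48.8% of the other hepatocytes, and for Hepatocyte3 with 34.4% against 33.1%. S100a13 was listed for Hepatocyte1 with 9.8% against 26.0%. Both genes were thus listed for Hepatocyte1 although they were found in fewer of its cells, as was the case for 160 of the 170 rows of that cluster. S100a1 and S100a13 are neighbours on chromosome 3, on opposite strands and 42 bases apart. The resistin-like genes Retn, Retnla and Retnlb were listed in neither table.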

How the data were processed

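The authors counted UMIs (unique molecular identifiers) with Cell Ranger on mm10, removed cells with over 3000 or under 200 genes or over 50% mitochondrial genes, scaled each cell to 10000, took the natural log, and clustered both libraries together with Seurat (50 principal components, resolution 5). They took the upper limit against doublets; no doublet caller was run here. Each deposited row gives, as fractions by the authors, how many cells exceed 0 inside and outside a cluster, pooled over 2 libraries and given to 3 decimals, printed here as percentages. The deposited p-value and log2 fold change columns hold the authors' own comparisons between clusters and were not used. The tables give no number of cells behind a share, so no interval for counting error is given; shares of the smallest clusters are the least precise.

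Relative cluster sizes were fitted by least squares, so that both shares of a gene give one share over all cells, over genes listed for at least 2 clusters (1115 genes of the table of all cells and 486 of the hepatocyte table), and were tested on simulated data. The share over all cells, the share in the clusters that do not list a gene and the hepatocyte range follow from these sizes. Ranks are by difference of shares. In the hepatocyte table, 7 rows carry dates in place of gene names (5 different dates) and were not matched to genes. Named genes are the 7, the 3 genes nearest to each and all listed members of the S100 family, resistin-like and partner lists. Of longer lists, the 4 genes with the largest difference are named. Csf3r, Cd3d, Elane, Mpo, Camp, Ltf, Lcn2, Lyz2, Slpi, Nfkb1, Cd33, Cd36, Tlr4, Ager, Clec4g, Lyve1 and Dcn were named after their values were seen. S100pbp, which encodes a binding protein and is no S100 family member, was not listed in either table and was left out of the count of that family. The 7 genes and all lists were chosen with earlier results of these data known. Cluster names and marker checks rest on the authors' annotation. Alternatives were least absolute deviations, rows at least 10 points apart, sizes scaled to 100%, other thresholds, ranks and distances. Coordinates are from GENCODE M21 on GRCm38, and promoters from RefSeq on GRCm38.p6, with a window for 6 of the 7 genes. Scripts ran in Python 3.11.15 with SciPy 1.17.1, NumPy 2.4.6, pandas 2.3.3 and Matplotlib 3.10.9.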

Additional observations from a re-analysis of the deposited data

How the results depend on the processing

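The share of each gene over all cells and in the clusters that do not list it moved by less than 0.1 percentage points with cluster sizes by least absolute deviations, from rows at least 10 points apart or scaled to 100%. The number of clusters listing a gene fell by over 1.5 times for S100a10 alone: from 3 to 1 in the table of all cells and from 1 to 0 in the hepatocyte table, with a minimum of 10 or of 25 points; with 25 points that of S100a6 went from 3 to 2. Ranks depend on the scale. By ratio of shares, the neutrophil ranks were 121 for S100a8, 122 for S100a9, 75 for Retnlg, 70 for S100a6 and 83 for S100a11. By log odds they were 2 for S100a8, 3 for S100a9, 25 for Retnlg and 19 for S100a6. In T cells, S100a4 ranked 133 by ratio and 135 by log odds, S100a6 267 and 232, S100a11 284 and 241, and S100a10 436 by ratio. In B cells, S100a4 ranked 67 by ratio and 113 by log odds. By log odds, 1 of the 3 genes nearest to Retnlg was the same (Mmp8, followed by Csf3r and Jaml). Of the counts of other gene lists, 16 of 30 fell by over 1.5 times with a minimum of 25 points, and that of neutrophil genes in neutrophils went from 12 to 10. No paired analysis was possible because each condition has 1 library and both are pooled. For the same reason no library could be left out, and the depth is unknown.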

Other observations

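The other 20 genes that were listed for neutrophils alone were looked at after their values were seen. They include the formyl peptide receptors Fpr1 and Fpr2 and the complement receptor C5ar1, through which neutrophils sense bacteria and tissue injury. Fpr2 had a value above 0 in 45.6% of the neutrophils and in 0.6% of the other cells, Fpr1 in 35.4% and 0.7%, and C5ar1 in 28.7% and 1.1%. Itgam, an integrin chain of myeloid cells, was at 37.6% against 10.1%. The shares outside neutrophils ranged from 0.6 to 43.6% over these 20 genes with a median of 2.9%, and 2 of them, Ppt1 and Msmo1, had a share outside at or above the 24.2% of Retnlg. Both had the lower share in neutrophils (20.7% against 43.6% for Ppt1 and 5.5% against 30.0% for Msmo1). S100a8, S100a9 and Retnlg thus had higher shares outside neutrophils than the 18 other genes of this set with a higher share inside. Among all 226 genes listed for neutrophils, however, the share of Retnlg outside ranked 103, near the median of 22.0%.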
